A study of Mus musculus with 6 samples.

Results

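Prl3d1, Prl3b1, Prl2c2, Prl4a1 and Prl8a2, which belong to the prolactin family, and Tpbpa, a gene of the spongiotrophoblast, were read on 1-colour Agilent arrays of whole mouse embryos. The genes were picked by symbol, older symbols included, with their difference between the genotypes already known, so that difference is described here and not tested. Under those symbols the array carried a probe for 5 of the 6 genes, out of 19505 named genes in all. Prl2c2 had none and could be read only through probes that it shares with near-identical genes. Embryos of the genotype Brg1d/d, conditional knockouts of Brg1 (Smarca4), which encodes an ATPase of the SWI/SNF chromatin remodelling complexes, were compared with Brg1fl/fl embryos, which the labels call wild type. Per the labels, dams received tamoxifen into the peritoneum and all embryos were collected at E8.5, so both genotypes shared that treatment and age. Each genotype had 3 samples, described by the submitters as biological replicates. The labels do not state the driver of the recombinase, the number of embryos in a sample, or whether placenta or decidua was trimmed away.

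Rodents carry a large cluster of prolactin family genes that are expressed mainly at the border of mother and conceptus. Trophoblast giant cells, which surround the implanted mouse embryo, secrete placental lactogens that act through the prolactin receptor, and proliferins that promote blood vessel growth. Other members are hormones with no known action on that receptor, some of them made by the maternal decidua, the transformed lining of the uterus. Prl3d1 encodes placental lactogen I of early giant cells, and Prl3b1 encodes placental lactogen II, which takes over later in gestation. Prl2c2 is a proliferin, Prl4a1 encodes a hormone known in the rat to bind natural killer cells of the uterus, and Prl8a2 encodes a decidual prolactin-related protein. Tpbpa marks the ectoplacental cone and the spongiotrophoblast derived from it.

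The array is an expression array of 60-base probes, and the sequences below show which genes a probe could tell apart. The array's annotation places them on the mouse build mm7, and no exon annotation of that build was used here. The probe named Plf2, now Prl2c3, lies at chrUn_random:1011041-1011975 on the plus strand, and the array also lists the Prl2c2 transcript for it. The probe named Mrpplf4, now Prl2c5, lies at chrUn_random:1535003-1535062 on the plus strand and lists Prl2c5 alone. Capitals mark the bases that differ between these probes or lie opposite a gap when they are aligned, which gave 52 identical positions, 2 mismatches and a gap of 6 bases.
Prl2c3: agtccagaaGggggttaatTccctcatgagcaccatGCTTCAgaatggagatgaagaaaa
Prl2c5: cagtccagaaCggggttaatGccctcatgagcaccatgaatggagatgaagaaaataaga
The probe named Plib, now Prl3d2, lies at chr13:26492894-26492953 on the plus strand and is listed for Prl3d1, Prl3d2 and Prl3d3 together, the 3 copies of placental lactogen I. The Tpbpa probe lies at chr13:60046780-60046839 on the minus strand and is listed for Tpbpa only.
Prl3d2: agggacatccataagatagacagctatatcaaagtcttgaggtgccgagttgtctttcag
Tpbpa: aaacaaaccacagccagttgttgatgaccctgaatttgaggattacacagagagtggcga
Prl3d1, Prl3b1, Prl8a2 and Prl4a1 were each read by 1 probe of chromosome 13 of mm7, all on the plus strand. The probes of Prl3b1, Prl8a2 and Prl4a1 each list their own gene alone. For the Prl3d1 probe the array lists no transcript of the gene table, so whether it also reads Prl3d2 or Prl3d3 is not known. Their starts were 26465689 for Prl3d1, 26615063 for Prl3b1, 26719459 for Prl8a2 and 27388995 for Prl4a1, so these 4 genes and Prl3d2 lay in 1 stretch of that chromosome, apart from Tpbpa.

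Promoters are shown because the promoter of placental lactogen I is known to be activated by GATA factors and AP-1 in trophoblast cells. RefSeq promoters of GRCm38.p6 were matched for 4 of the 6 genes, Prl3d1, Prl3b1, Prl4a1 and Tpbpa, and the 250 bases before the start are used. Capitals mark matches to the GATA motif (AGATAA or AGATAG or TGATAA or TGATAG) and to the AP-1 motif (TGACTCA), each searched on both strands, and the motifs did not overlap in these windows. The windows printed are chr13:27093939-27094188 for Prl3d1, chr13:28015962-28016211 for Prl4a1 and chr13:27242180-27242429 for Prl3b1, all on the plus strand.
Prl3d1: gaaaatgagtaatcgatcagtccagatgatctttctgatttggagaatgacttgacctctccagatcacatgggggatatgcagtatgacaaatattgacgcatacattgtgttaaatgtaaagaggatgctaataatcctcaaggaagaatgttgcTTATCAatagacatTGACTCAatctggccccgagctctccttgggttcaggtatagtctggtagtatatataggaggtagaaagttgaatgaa
Prl4a1: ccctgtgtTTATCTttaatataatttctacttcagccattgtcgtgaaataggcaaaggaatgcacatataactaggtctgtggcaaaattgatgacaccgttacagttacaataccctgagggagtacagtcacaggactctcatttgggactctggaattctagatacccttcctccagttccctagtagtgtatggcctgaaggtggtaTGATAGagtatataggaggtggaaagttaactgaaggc
Prl3b1: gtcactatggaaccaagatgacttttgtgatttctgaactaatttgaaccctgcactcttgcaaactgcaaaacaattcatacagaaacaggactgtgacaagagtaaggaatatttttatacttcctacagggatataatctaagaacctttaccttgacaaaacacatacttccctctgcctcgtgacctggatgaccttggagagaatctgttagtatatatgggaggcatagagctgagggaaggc
The Prl3d1 window held a GATA match 93 bases and an AP-1 match 79 bases before the start. The windows of its copies Prl3d2 and Prl3d3 were 97.9% and 98.3% identical to it where they overlapped, and each held the same pair of matches. Prl4a1 held GATA matches 242 and 38 bases before the start and no AP-1 match, and Prl3b1 held neither motif. Tpbpa held an AP-1 match 196 bases before the start and no GATA match. Over 32851 RefSeq promoters of the same length, 26.5% held a GATA match and 4.46% an AP-1 match, so a GATA match by itself is common, and a match is no evidence of binding. Within the family, Prl7a1 also held both motifs, as did Prl3a1, which was not well above background on any array. The part of these motifs in the array readings was not tested.

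Each array carried 43379 spots outside the controls, of which 68.5% to 73.5% were well above background, a flag of the scanner software. Levels below are on a log2 scale relative to the 75th percentile of the array, so a level of 0 is the signal at that percentile, and a difference of 1 is a doubling. The number of arrays limits the precision of every difference. Scan day was shared by Brg1d/d 2 and the 3 Brg1fl/fl arrays, while Brg1d/d 1 and Brg1d/d 3 were scanned on separate days. The brightest spike-in control also read 12934 and 6905 units on Brg1d/d 1 and Brg1d/d 3, against 208550 to 241121 units on the other 4 arrays. For this reason a same-day difference is given below, which is Brg1d/d 2 minus the mean of the 3 Brg1fl/fl arrays and has no replicate of its own. The 3 Brg1fl/fl arrays shared 1 slide and each Brg1d/d array lay on another slide, so slide and genotype cannot be told apart. Smarca4, read by its brightest probe, averaged 2.05 ± 0.58 in Brg1d/d embryos and 4.74 ± 0.47 in Brg1fl/fl embryos (SD, n = 3 each), without overlap, a difference of -2.69 (limma adjusted p 0.0114). Which exons were deleted is not stated in the labels, and this probe may lie outside them.

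All 4 prolactin genes with a probe under their symbols had a higher mean in Brg1d/d embryos, by 1.35 to 4.48 on the log2 scale. Tpbpa was not well above background on any array. The difference was uneven. Prl8a2 and Prl3b1 were higher on every Brg1d/d array than on any Brg1fl/fl array, whereas Prl3d1 and Prl4a1 overlapped, with Brg1d/d 3 below Brg1fl/fl 3 for both and below Brg1fl/fl 1 too for Prl4a1. In whole embryos, more cells of a type and more RNA per cell cannot be told apart. Of the 15026 genes tested, 22.8% were higher on all Brg1d/d arrays than on all Brg1fl/fl arrays, and since the genes were chosen on this contrast nothing is read from their own count of 2 of 5. The median difference of the 5 genes with a probe was 3.15, which counts Tpbpa although it had no measured level. Over the 4 members that passed the filter on dim probes it was 3.81, and over all genes that passed it was 0.07.

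Prl3d1, the early placental lactogen, was well above background on all 6 arrays. Its level was 0.95, 0.61 and -2.11 on Brg1d/d 1, 2 and 3, against -4.64, -3.87 and -1.48 on Brg1fl/fl 1, 2 and 3. In signal units these were 3146, 1483 and 367 in Brg1d/d embryos, against 40.0, 69.0 and 343 units in Brg1fl/fl embryos. Brg1d/d 1 and 2 stood far above every Brg1fl/fl array, but Brg1d/d 3 lay slightly below Brg1fl/fl 3, so the genotypes overlapped. The means were -0.18 ± 1.68 in Brg1d/d embryos and -3.33 ± 1.65 in Brg1fl/fl embryos (SD, n = 3 each), a difference of 3.15 or 8.88-fold. The same-day difference was 3.94.

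The probe shared by the 3 copies of placental lactogen I followed the same order of arrays. It read 0.01, -0.15 and -3.83 on Brg1d/d 1, 2 and 3, against -6.46, -5.01 and -2.47 on Brg1fl/fl 1, 2 and 3. Again Brg1d/d 3 lay below Brg1fl/fl 3. This probe cannot separate Prl3d1 from Prl3d2 and Prl3d3, so it repeats the reading of Prl3d1 in the same RNA and is no further replicate.

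Prl3b1, the later placental lactogen, was well above background on all 6 arrays but had another order. Its level was -3.36, -4.84 and -2.78 on Brg1d/d 1, 2 and 3, against -4.87, -5.25 and -4.91 on Brg1fl/fl 1, 2 and 3. Brg1d/d 3, the lowest Brg1d/d array for Prl3d1, was the highest for Prl3b1, and the Brg1fl/fl arrays lay close together. The difference of means was 1.35, or 2.54-fold, from -3.66 ± 1.06 in Brg1d/d embryos and -5.01 ± 0.21 in Brg1fl/fl embryos (SD, n = 3 each). Brg1d/d 2 exceeded the highest Brg1fl/fl array by little, and the same-day difference was 0.17. The higher readings of Prl3b1 were thus those of the 2 arrays with low spike-in signal and scan days of their own, and the part of day and spike-in signal in them was not tested. Under another background correction (normexp) the difference was 0.52.

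The proliferins, growth factors of the giant cell, were read by 5 probes named for Prl2c3 or Prl2c5, 4 of which also list Prl2c2. The brightest Prl2c3 probe read 0.02, -0.38 and -2.67 on Brg1d/d 1, 2 and 3, against -5.90, -2.60 and -1.10 on Brg1fl/fl 1, 2 and 3. The Prl2c5 probe, which lists no other proliferin, read 0.38, -0.09 and -2.42 in Brg1d/d embryos, against -4.80, -1.96 and -0.63 in Brg1fl/fl embryos. Both probes, printed above with their differing bases, showed the same order of arrays, with Brg1d/d 3 below Brg1fl/fl 3 and Brg1fl/fl 1 lowest. The 4 probes that were well above background on all 6 arrays differed between genotypes by 1.53 to 2.19, and none of these values can be given to Prl2c2 itself.

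Prl4a1, the natural killer cell ligand known from the rat, had the widest spread. Its level was 2.13, 2.05 and -5.39 on Brg1d/d 1, 2 and 3, against -4.70, -7.63 and -2.31 on Brg1fl/fl 1, 2 and 3. In signal units these were 7116, 4029 and 37.6 in Brg1d/d embryos, against 38.4, 5.11 and 193 units in Brg1fl/fl embryos. Brg1d/d 3 thus read about as low as Brg1fl/fl 1 and lower than Brg1fl/fl 3, and Brg1fl/fl 2 was not well above background. The means were -0.40 ± 4.32 in Brg1d/d embryos and -4.88 ± 2.66 in Brg1fl/fl embryos (SD, n = 3 each), and their difference of 4.48 was close to the SD within Brg1d/d. The same-day difference was 6.94.

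Prl8a2, the decidual prolactin-related gene, had no overlap between the genotypes. Its level was -1.18, -1.59 and -2.52 on Brg1d/d 1, 2 and 3, against -7.96, -6.92 and -3.83 on Brg1fl/fl 1, 2 and 3. In signal units these were 719, 322 and 276 in Brg1d/d embryos, against 4.03, 8.33 and 67.5 units in Brg1fl/fl embryos. It was well above background on all Brg1d/d arrays and on 1 of the 3 Brg1fl/fl arrays, replicate 3, so the values of the other Brg1fl/fl arrays are only upper limits of its level. The means were -1.76 ± 0.69 in Brg1d/d embryos and -6.23 ± 2.15 in Brg1fl/fl embryos (SD, n = 3 each). Their difference, which rests in part on those limits, was 4.47, the same-day difference was 4.64, and normexp gave 2.03.

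Tpbpa, taken as the spongiotrophoblast gene beside them, read 16.3, 2.27 and 8.71 units on Brg1d/d 1, 2 and 3, against 2.52, 2.03 and 5.93 units on Brg1fl/fl 1, 2 and 3. None of these was well above background, so no fold is given. Tpbpb, its close relative, was not well above background on any array either. The signal of these probes does not show whether spongiotrophoblast was present.

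**Figure D1:**
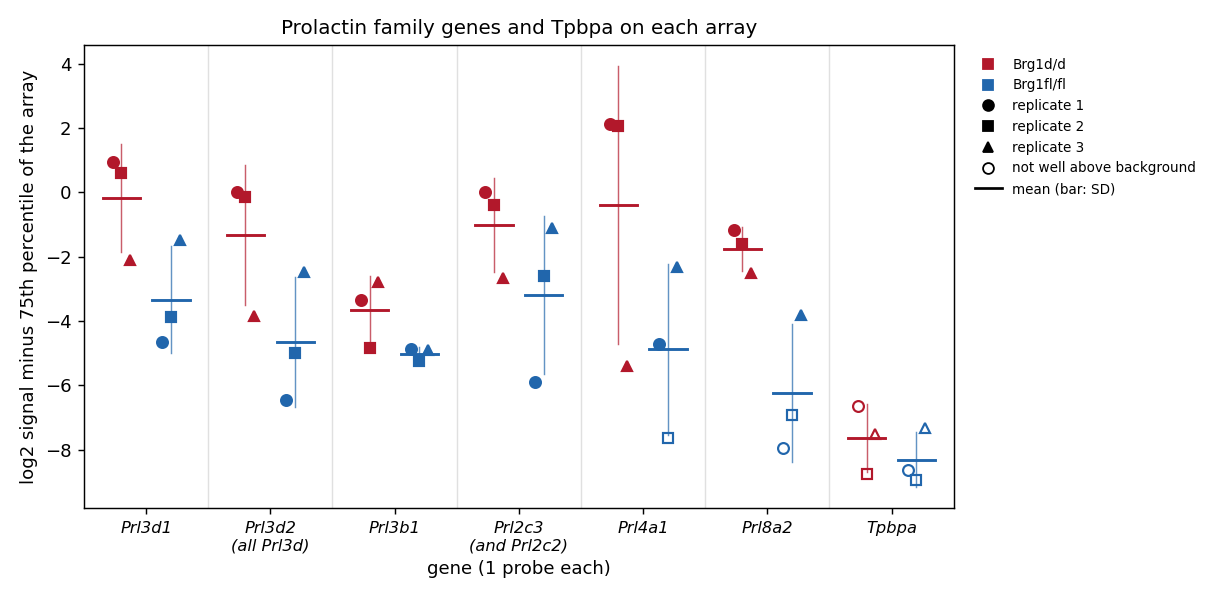
Levels of 7 genes on each array, on a log2 scale relative to the 75th percentile of the array, with Brg1d/d (red) left of Brg1fl/fl (blue), 1 symbol per replicate, open symbols where a spot was not well above background, and lines for the mean with SD bars. Brg1d/d replicate 3 lies below Brg1fl/fl replicate 3 for Prl3d1, Prl3d2, Prl2c3 and Prl4a1, the genotypes do not overlap for Prl3b1 and Prl8a2, and all Tpbpa symbols are open.

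Array order was shared by much of the family. Among the 4 other prolactin family genes tested, Brg1d/d 3 was the lowest Brg1d/d array and Brg1fl/fl 3 the highest Brg1fl/fl array for all 4, and the same held for Prl3d1, Prl4a1 and Prl8a2 of the 5 members with a probe. These readings are not all separate, since the probes of Prl3d2 and Prl2c3 also list the members Prl3d1 and Prl2c2. Over the 14 prolactin family genes that were well above background on any array, both held for 8, counting spots that were not above it. The mean level of the 4 prolactin members was -0.36, -0.94 and -3.20 on Brg1d/d 1, 2 and 3, against -5.54, -5.92 and -3.13 on Brg1fl/fl 1, 2 and 3. Brg1d/d 3 and Brg1fl/fl 3 were thus nearly alike in this mean. Over the 6 arrays the genes whose levels followed that mean most closely, among 14192 genes well above background throughout, were Eif2d (Pearson r 0.997), R3hdm4 (0.995), Ccdc22 (0.994), Scin (0.982) and Dnttip2 (0.981). Eif2d covered a small range, with 2.55, 2.51 and 2.28 in Brg1d/d embryos, against 2.03, 2.04 and 2.30 in Brg1fl/fl embryos, whereas Scin, an actin-severing protein, ran from -2.07 in Brg1d/d 1 to -5.82 in Brg1fl/fl 2. With 6 arrays and so many genes, high correlations are common, and no p is given. The genes closest to Tpbpa were Ndufa3 (0.988), Gtf2h4 (0.978), Rpl36al (0.977), Timm8b (0.975) and Pnkd (0.974), but Tpbpa itself had no measured level.

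Of the 22 other prolactin family genes listed, 19 had a probe, 4 were bright enough to be tested (Prl2c3, Prl2c5, Prl3d2 and Prl7a1), and 9 were not well above background on any array. None of the 4 passed the threshold of 0.05 in limma, against 10.6% of all genes tested. An unadjusted limma p under 0.05 was found for 2 of them, and for 4889 of all 15026 genes tested. Prl7a1, the gene of this list with the smallest p, read -2.82, -3.16 and -5.29 on Brg1d/d 1, 2 and 3, against -8.38, -8.25 and -4.40 on Brg1fl/fl 1, 2 and 3. Its difference was 3.25 ± 1.196 (SE), with a limma adjusted p of 0.126, and normexp gave 0.78. It passed the filter through Brg1d/d alone and was measured on 1 of the 3 Brg1fl/fl arrays, so its difference is not an exact one. The Prl3d2 probe differed by 3.32 (limma adjusted p 0.15), the brightest Prl2c3 probe by 2.19 (0.279) and the brightest Prl2c5 probe by 1.76 (0.336). The Prl3d2 and Prl2c3 probes also list the members Prl3d1 and Prl2c2, so they are no tests of genes apart from the members. A dim Prl2c3 probe that was well above background on all Brg1d/d arrays and on no Brg1fl/fl array was at least 2.32-fold higher in Brg1d/d embryos (adjusted p 0.0201), but it entered the fit only through Brg1d/d, so its p is no support for a difference of the gene. Such a bound is taken against the lowest signal well above background on the dim arrays, or their own signal where that is higher. The Brg1d/d mean enters with all its arrays, so the value is a lower limit only where all of them were measured.

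Other dim family genes, picked after their values were seen, were measured on some arrays only. Prl2a1 was well above background on Brg1d/d 1, Brg1d/d 2 and Brg1fl/fl 3, with levels of -2.46, -2.77 and -7.75 in Brg1d/d embryos, against -8.61, -6.80 and -5.40 in Brg1fl/fl embryos. Prl5a1 was well above background on Brg1d/d 1 and 2 only, at -5.32, -5.41 and -8.59 in Brg1d/d embryos, against -8.98, -9.33 and -9.18 in Brg1fl/fl embryos. The same calculation gave 1.33-fold for Prl5a1, but it counts Brg1d/d 3 at its unmeasured value, so this is no strict lower limit. Prl5a1 was too dim to be tested. In both genes Brg1d/d 3 was not well above background.

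**Figure D2:**
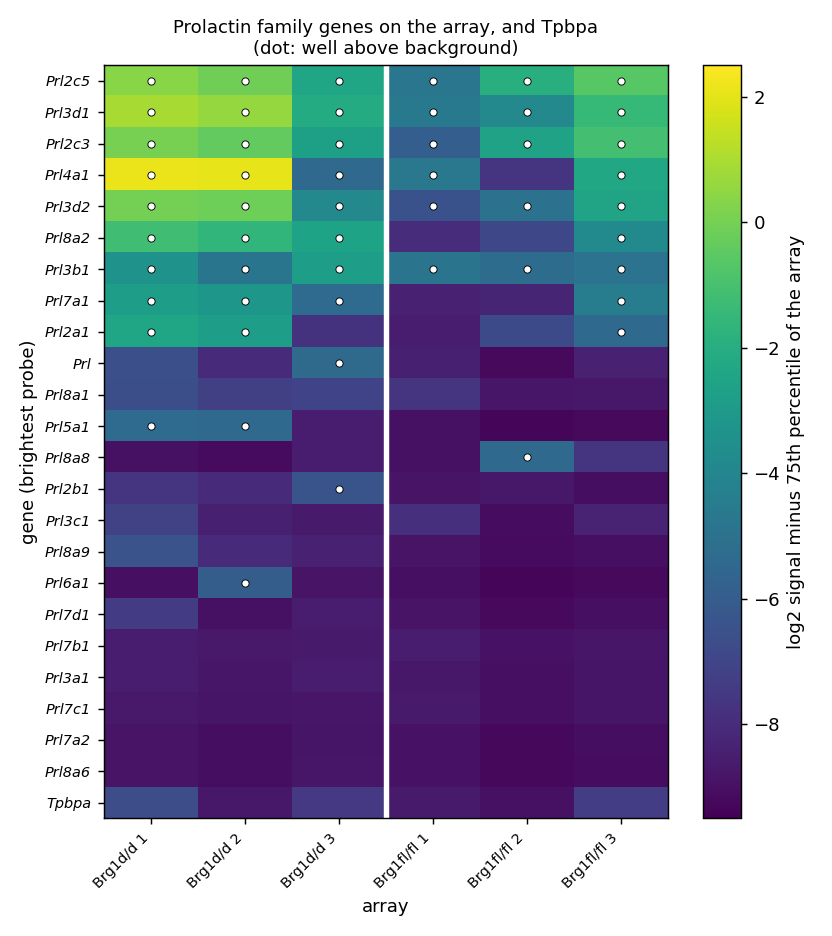
Levels of the prolactin family genes on the array and of Tpbpa (bottom) on each array, Brg1d/d left of Brg1fl/fl, by the brightest probe and coloured by level (log2, relative to the 75th percentile of the array), with a dot where the spot was well above background. The upper genes are bright on Brg1d/d 1 and 2 and darker on Brg1d/d 3, Brg1fl/fl 3 is the brightest Brg1fl/fl array for 9 of the 14 prolactin genes that carry a dot, and 9 genes besides Tpbpa carry no dot.

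Placental genes outside the prolactin family were examined in 5 lists of trophoblast genes, chosen with earlier results of these data known. Of their 54 genes, 48 had a probe and 24 were tested, of which 6 rose and 1 fell in limma at an adjusted p under 0.05, while 5.25% of all genes tested rose and 5.31% fell. Among the giant cell genes, 2 of 8 tested passed. Gata2, a transcription factor that activates placental lactogen and proliferin genes in trophoblast cells, read 2.08, 2.04 and 1.65 on Brg1d/d 1, 2 and 3, against -0.40, 0.00 and -0.07 on Brg1fl/fl 1, 2 and 3. It rose by 2.08 ± 0.20 (SE), or 4.22-fold (limma adjusted p 0.00435), and its genotypes were far apart on every array. Hand1, a transcription factor required for giant cell differentiation, read 3.04, 2.46 and 2.89 in Brg1d/d embryos, against 0.87, 1.24 and 2.02 in Brg1fl/fl embryos, and rose by 1.41 ± 0.33 (adjusted p 0.0462), a call that median scaling ended, as did other alternatives. The same-day differences were 2.19 for Gata2 and 1.08 for Hand1. With scan day as a block, which leaves 1 Brg1d/d array to carry the contrast, none of the 15 genes that passed in these and the following lists still did (limma, 0 of all genes passed and 1795 had an unadjusted p under 0.05). Of the same 15, 10 no longer passed without Brg1fl/fl 2, 8 without Brg1d/d 1 and 8 without Brg1d/d 3, while Gata2, Elf5 and Esrrb passed whichever single array was left out. For Gata2 and Hand1, Brg1d/d 3 lay above every Brg1fl/fl array, unlike for Prl3d1 and Prl4a1.

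In the spongiotrophoblast and ectoplacental cone list 7 genes were tested and none fell. Ascl2, a transcription factor that maintains spongiotrophoblast, rose by 2.36 ± 0.36 (SE, limma adjusted p 0.0159), with -1.31, -2.12 and -2.70 in Brg1d/d embryos, against -4.32, -4.67 and -4.21 in Brg1fl/fl embryos. With normexp its difference was 1.38. Ascl2 thus rose where Tpbpa had no measured level. In the labyrinth list 3 of 6 tested genes passed. Cebpa, a transcription factor needed in the labyrinth, rose by 1.68 (adjusted p 0.0184), a call that ended with normexp (0.32, adjusted p 0.175), quantile scaling, the replicate block, and without Brg1d/d 1 or Brg1fl/fl 3. Ovol2, a zinc finger regulator of trophoblast differentiation, rose by 1.42 (0.0106). Ly6e, which encodes the receptor of the fusion protein syncytin-A, fell by 1.22 on the log2 scale (0.0198).

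Pregnancy-specific glycoproteins and Ceacam genes were too dim to add much, since 9 of the 14 with a probe were not well above background on any array and Psg19, the 1 gene tested, did not pass (difference 0.26, limma adjusted p 0.475). Of the placental cathepsins, lysosomal proteases of trophoblast encoded in a rodent cluster, 2 of 9 were tested, the related Ctla2a and Ctla2b, and neither passed, Ctla2a having a difference of -0.07 (adjusted p 0.845). Cts7 and Cts8, picked after their values were seen, were high on Brg1d/d 1 and 2 and low on Brg1d/d 3, where neither was well above background. Cts7 read -4.10, -4.22 and -6.61 on Brg1d/d 1, 2 and 3, against -8.26, -8.58 and -6.45 on Brg1fl/fl 1, 2 and 3. Cts8 read -4.60, -4.61 and -7.03 in Brg1d/d embryos, against -8.84, -9.18 and -6.97 in Brg1fl/fl embryos. The bound calculation gave 2.71-fold for Cts8, which rests on Brg1d/d 1 and 2. It counts Brg1d/d 3 at its unmeasured value, below Brg1fl/fl 3, so it is no strict lower limit. Cts7 was well above background on Brg1fl/fl 3 alone among the Brg1fl/fl arrays and Cts8 on none.

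Of 9 trophoblast progenitor genes tested, 4 rose and none fell. Elf5, a transcription factor of trophoblast stem cells and the extraembryonic ectoderm, read 0.53, 0.63 and 0.33 in Brg1d/d embryos, against -2.51, -2.97 and -2.72 in Brg1fl/fl embryos, and rose by 3.23 ± 0.18 (SE, limma adjusted p 0.00111). Eomes, a T-box factor of the same cells, rose by 3.07 (0.029), Tfap2c by 2.40 (0.0121) and Esrrb, an orphan nuclear receptor, by 2.22 (0.00514), while normexp gave 1.68 for Eomes and 1.34 for Esrrb. On the shared scan day Elf5 differed by 3.36, Eomes by 3.25, Tfap2c by 2.66 and Esrrb by 2.02. Cdx2 did not pass, at a difference of 0.32 (0.421). The summed level of the list, on a linear scale in units of the array's 75th percentile, was 50.5 to 59.7 in Brg1d/d embryos, against 35.3 to 41.3 in Brg1fl/fl embryos. This sum covers all 9 genes, those that did not pass included. On every Brg1d/d array 6 of the 9 were higher and 1 was lower than on any Brg1fl/fl array, against 22.8% and 19.1% of all genes tested.

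**Figure D3:**
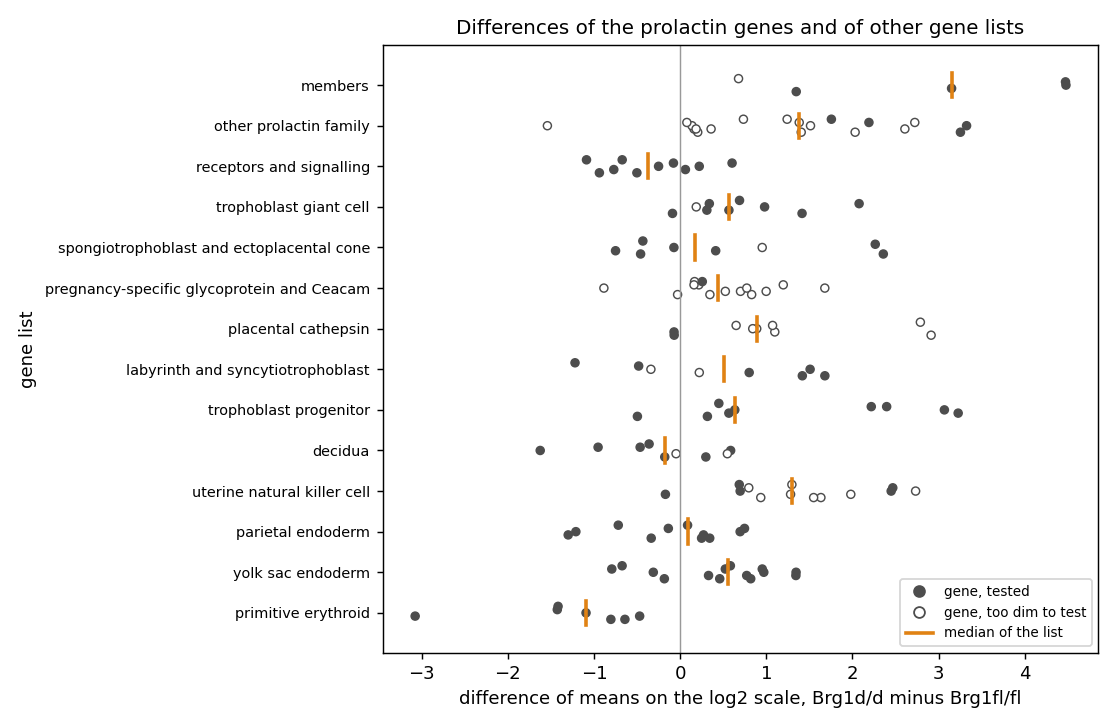
Difference of means, Brg1d/d minus Brg1fl/fl, on the log2 scale for each gene of the prolactin set (members, top) and of 13 other gene lists, with filled points for genes tested, open points for genes too dim to test and orange lines for the median of a list. The median is 3.15 for the members, counting Tpbpa, which had no measured level, and 1.38 for the other prolactin family genes.

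Maternal tissue was read through markers of decidua and of uterine natural killer cells, since Prl8a2 is known from decidua. Of 9 decidual genes, 7 were tested and none passed in limma. Of the 7, 4 had an unadjusted limma p under 0.05, as had 4889 of all 15026 genes tested. The summed level was 1.35 to 1.66 in Brg1d/d embryos, against 1.65 to 1.97 in Brg1fl/fl embryos. Esr1, the oestrogen receptor of the uterus, was not well above background on any array, and Pgr, the progesterone receptor, was well above it on Brg1d/d 1 and Brg1d/d 3 only. Hand2, the list's gene with the smallest p, which decidual stroma and embryonic heart both express, had a difference of 0.59 (adjusted p 0.0667). The summed levels overlapped, with 1.66 on Brg1d/d 2 and 1.65 on Brg1fl/fl 2. The list's median level did not overlap, at -3.14, -3.46 and -3.20 in Brg1d/d embryos, against -2.22, -2.22 and -2.09 in Brg1fl/fl embryos. On every Brg1d/d array 3 of the 9 were lower and 1 was higher than on any Brg1fl/fl array, against 19.1% and 22.8% of all genes tested. Sum and median also hold genes that embryos express, such as Hand2, so neither is a measure of maternal tissue. The part of decidua in the prolactin readings was not tested.

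Uterine natural killer genes were dim. Of 13 with a probe, 3 were not well above background on any array, 2 were so on all 6, and 5 were tested, of which 2 passed, Gzmd and Il2rb. None passed with normexp, with the filter that asks for all 6 arrays, or without Brg1d/d 1 or Brg1fl/fl 2. The summed level of the list, which includes spots not well above background, was 0.304, 0.153 and 0.210 on Brg1d/d 1, 2 and 3, against 0.0934, 0.0989 and 0.0960 on Brg1fl/fl 1, 2 and 3. Gzmd, a granzyme, read -4.98, -4.82 and -4.97 in Brg1d/d embryos, against -8.24, -7.20 and -6.74 in Brg1fl/fl embryos, with a difference of 2.47 ± 0.375 (SE, limma adjusted p 0.0159), or 0.22 with normexp (0.295). Il2rb, a subunit of the receptors of interleukin 2 and interleukin 15, had a difference of 2.45 ± 0.51 (0.0366), or 0.43 with normexp (0.121). Both genes entered the test through Brg1d/d alone and were well above background on 1 of the 3 Brg1fl/fl arrays, so these differences rest on 2 unmeasured arrays each. Prf1, perforin, picked after its values were seen, was well above background on Brg1d/d 1 and 2 and on no Brg1fl/fl array. The bound calculation gave 1.65-fold for Prf1, but it counts Brg1d/d 3 at its unmeasured value, so it is no strict lower limit. Gzma, Gzme and Gzmf were not well above background on any array, and Ncr1, a defining receptor of these cells, was so on Brg1d/d 1 only. Unlike Prl4a1, Gzmd was as high on Brg1d/d 3 as on the other Brg1d/d arrays. The part of such cells in the prolactin readings was not tested.

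**Figure D4:**
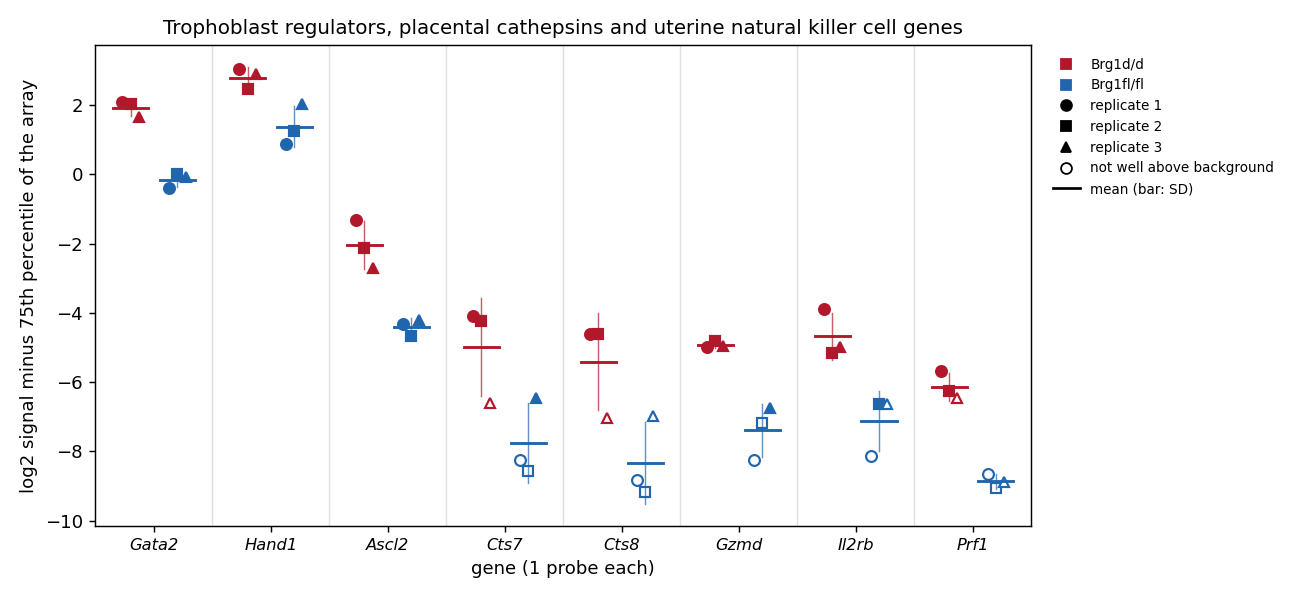
Levels of trophoblast regulators, placental cathepsins and uterine natural killer cell genes on each array, drawn with the same axis, colours and symbols as the prolactin genes, Brg1d/d left of Brg1fl/fl. Gata2, Hand1 and Ascl2, with filled symbols throughout, separate the genotypes on every array, Gzmd, Il2rb and Prf1 have open symbols among the Brg1fl/fl arrays, and Cts7 and Cts8 are open for Brg1d/d replicate 3.

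Genes through which the lactogens act were examined last. Of 10 receptor and signalling genes, all were tested, none rose and 1 fell, against 5.25% and 5.31% of all genes tested. Cish, a feedback inhibitor induced by STAT5, read -1.83, -1.54 and -1.58 in Brg1d/d embryos, against -0.74, -0.64 and -0.76 in Brg1fl/fl embryos, and fell by 0.94 on the log2 scale (limma adjusted p 0.0201). Its same-day difference was -0.83, and the call ended without Brg1d/d 1, Brg1d/d 3, Brg1fl/fl 2 or Brg1fl/fl 3, among other settings. Prlr, the prolactin receptor, named for its role, read -3.67, -3.21 and -3.50 in Brg1d/d embryos, against -4.50, -1.47 and -1.15 in Brg1fl/fl embryos. Its Brg1fl/fl arrays spanned the Brg1d/d values, and the difference of -1.09 did not pass (adjusted p 0.402).

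Other extraembryonic lists set the Brg1fl/fl arrays apart from one another. Of 11 parietal endoderm genes, all tested, 1 passed, Nid1, a basement membrane protein that fell by 1.30 on the log2 scale (limma adjusted p 0.0302). Of all genes tested, 5.31% fell. The same-day difference of Nid1 was -0.81, and its call ended without Brg1d/d 1, Brg1d/d 3, Brg1fl/fl 2 or Brg1fl/fl 3, among other settings. None of 14 yolk sac endoderm genes and none of 7 primitive erythroid genes passed. An unadjusted limma p under 0.05 was found for 0 of the 14 and 2 of the 7, and for 4889 of all 15026 genes tested. The genes with the smallest p were Amn, an endocytic protein of visceral endoderm (difference 1.34, adjusted p 0.229), and Slc4a1, the erythrocyte anion exchanger (-3.08, 0.0737). Brg1fl/fl 1 was lower than the mean of Brg1fl/fl 2 and 3 for all 14 yolk sac and all 7 erythroid genes, with median differences of -2.80 and -3.13 on the log2 scale. It was also the lowest Brg1fl/fl array for Prl3d1 and for the 4 proliferin probes measured on all arrays, but not for Prl4a1. Leaving out Brg1fl/fl 1 gave -4.15 for Slc4a1, which then passed (limma adjusted p 0.0017), and 0.48 for Amn, which did not (0.143). For the prolactin genes the differences without that array were 2.49 for Prl3d1, 1.42 for Prl3b1, 4.57 for Prl4a1 and 3.61 for Prl8a2. Without Brg1d/d 3 they were 4.11 for Prl3d1, 0.91 for Prl3b1, 6.97 for Prl4a1 and 4.85 for Prl8a2.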

How the data were processed

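Per the labels, 250 ng of total RNA per sample was labelled with Cy3. The deposited scanner files hold intensity values that the authors made with Agilent Feature Extraction 9.5, per the submitters' processing notes, with background subtracted and detrended and no scaling between arrays, per the file headers. Flags of 0 or 1 in the deposited files, of the unit other, mark outliers, saturation and whether a spot was well above background. The values of the deposited series table and the processed signal were equal, to a relative tolerance of 1e-4, for 100% of 45018 spots.

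Control and outlier spots were left out, spots of a probe were averaged, and log2 signal was set relative to the 75th percentile of its array. Of 41174 probes, 32719 were named, by accession, symbol or synonym of the GRCm38.p6 gene table. The 27853 probes that were well above background on every array of 1 or both genotypes were fitted with limma 3.58.1 in R 4.3.3 (lmFit, eBayes, two-sided, Benjamini-Hochberg over all of them, threshold 0.05). The brightest kept probe stood for a gene. The fit was tested on simulated data. Files were read with Python 3.11.15 and plots drawn with matplotlib 3.10.9.

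The members and the gene lists were chosen with earlier results of these data known. The text names every probe of the members, per list the 4 or fewer passing genes that differed most or, where none passed, the gene with the smallest p, Smarca4, and the 5 genes most like the mean prolactin level and most like Tpbpa. Some results are left out of this text. Genes named outside this rule, for their role, their values or their promoter, are Prl2a1, Prl3a1, Prl5a1, the other tested family genes, Tpbpb, Cts7, Cts8, Ctla2b, Cdx2, Prlr, Esr1, Pgr, Prf1, Gzma, Gzme, Gzmf and Ncr1. Alternatives were quantile and median scaling, normexp (offset 50), other filters and thresholds, a trended robust eBayes, the mean of a gene's probes, the series table, each array left out in turn, and replicate number, scan day or spike-in signal class as a block, or slide as a random block.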

Additional observations from a re-analysis of the deposited data

How the results depend on the processing

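The median difference of the 5 prolactin and Tpbpa genes with a probe, 3.15, ranged over the alternatives from 2.03 (normexp) to 4.11 (without Brg1d/d replicate 3). Leaving out 1 array in turn gave 2.49 to 4.11. Its sign is no support, since the genes were picked with this contrast known. Other filters, the trended robust eBayes, the mean of a gene's probes, the replicate and slide blocks and the series table left it at 3.15, since they do not alter this difference of means. Of the other prolactin family genes none passed under any setting except 1 without Brg1d/d replicate 3 and 1 without Brg1fl/fl replicate 3, so leaving out an array gave 0 to 1. The 7 trophoblast genes changed became 3 to 9 with an array left out, 4 with the replicate block, 0 with scan day or spike-in signal class as a block, and 2 at an adjusted p under 0.01. The 1587 genes changed became 694 without a filter, 572 with the replicate block, 0 with scan day as a block (limma, 1795 at an unadjusted p under 0.05), 122 with spike-in signal class as a block, 263 at an adjusted p under 0.01, and 306 to 2918 with an array left out, the lowest without Brg1fl/fl replicate 2 and the highest without Brg1d/d replicate 2. Without Brg1d/d replicate 1, Brg1d/d replicate 3 or Brg1fl/fl replicate 3 it was 327, 345 and 922. Of 15 list genes that passed, 15 no longer did with scan day as a block and 14 with spike-in signal class, where the same-day contrast rests on 1 Brg1d/d array. Of the same 15, 8 were lost without Brg1d/d replicate 1, 8 without Brg1d/d replicate 3 and 10 without Brg1fl/fl replicate 2, 5 without Brg1fl/fl replicate 3, 6 with the replicate block, 4 without a filter, 3 with normexp, 2 with quantile scaling, and 1 each with median scaling or without Brg1fl/fl replicate 1. With slide as a random block 1 was lost, but no slide held both genotypes, so this setting cannot separate slide from genotype.

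Replicate numbers are shared by the genotypes in the labels but nothing says what they pair. Deviations from the group means correlated at -0.127, 0.081 and 0.091 for numbers 1, 2 and 3, and 2 of 6 samples correlated best with their own number, so the samples were taken as unpaired.

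Directions turned for Tpbpa, which has no measured level (0.68, against -0.20 with normexp and -0.43 with scan day or spike-in signal class as a block), for Psg19 (-0.083 with quantile scaling, -0.12 with normexp and -0.013 with either block), and for Ctla2a (0.040 without Brg1d/d replicate 2 and 0.051 without Brg1fl/fl replicate 3, over a range of -0.26 to 0.051 with an array left out); the cause was not tested. Prl3b1 fell short of its reported difference with normexp (0.52) and with either block (0.17). Signal near background limits Prl8a2, Prl4a1, Prl7a1, Gzmd and Il2rb in Brg1fl/fl embryos.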
